A study of Rattus norvegicus with 4 samples.

Results

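The miR-127 group consists of the miRNAs cut from 5 hairpins, miR-431, miR-433, miR-127, miR-434 and miR-136, which lie side by side in the imprinted Dlk1-Dio3 domain. Its members were taken by name, as every product in the count table numbered rno-miR-127, rno-miR-136, rno-miR-431, rno-miR-433 or rno-miR-434 with any arm or letter added, and not by any measured value. This gave 9 products of 5 genes among the 740 miRNA names in the table. They were rno-miR-127-3p, rno-miR-127-5p, rno-miR-136-3p, rno-miR-136-5p, rno-miR-433-3p, rno-miR-433-5p, rno-miR-431, rno-miR-434 and the product marked as the star strand of rno-miR-434. The study compared matrix vesicles (MVs), small membrane-bound particles that chondrocytes release into their matrix, with the cells that made them, at an earlier and a later stage of maturation. RC-cells were resting zone chondrocytes and GC-cells were growth zone chondrocytes, both from rat costochondral cartilage and both at passage 4 with no treatment named. The methods give the animals as male Sprague Dawley rats, and all cultures were grown to confluence in medium with ascorbic acid and fetal bovine serum, from which bovine exosomes had been spun out beforehand. RC-MVs and GC-MVs were spun down from the trypsin-digested cell layer of these cultures. Each of the 4 conditions was sequenced as 1 small RNA library, and it is not given in the sources used here how many animals or cultures a library held. There was therefore no replicate error for any value below, and no p-value was computed.

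A miRNA hairpin is cut by Drosha and Dicer into a duplex of a 5p and a 3p arm, and usually the arm that is loaded into Argonaute stays while the other is lost. In the Dlk1-Dio3 domain the miRNAs are made from the maternal chromosome. The paternal chromosome makes protein-coding genes such as Dlk1 and Rtl1, the last of which is a retrotransposon-derived gene best known for its need in the placenta. The hairpins of the miR-127 group are transcribed from the strand opposite to Rtl1, so that their products match the Rtl1 transcript in full and can direct its cleavage.

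In the RefSeq annotation of the rat assembly GRCr8, the 5 genes were placed on the plus strand of chromosome 6, inside the span of Rtl1, in the order Mir431, Mir433, Mir127, Mir434 and Mir136. The mature sequences below, from RefSeq with the build GRCr8, cover the arms that led in the cells and both arms of miR-434. The printed products that differed can thus be set against miR-431 and miR-433-3p, which differed little between cells and MVs. Capitals mark the seed, bases 2 to 8 from the 5′ end, which is the part of a miRNA that pairs with most of its targets.
miR-127-3p: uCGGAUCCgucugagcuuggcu
miR-136-3p: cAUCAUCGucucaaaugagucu
miR-433-3p: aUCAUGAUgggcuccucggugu
miR-431: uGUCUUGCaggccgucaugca
miR-434-5p: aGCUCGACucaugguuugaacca
miR-434-3p: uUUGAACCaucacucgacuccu
The first lies at chr6:134328510-134328531, the next at chr6:134331383-134331404, miR-433-3p at chr6:134327421-134327442, miR-431 at chr6:134326468-134326488, miR-434-5p at chr6:134330413-134330435 and miR-434-3p at chr6:134330451-134330472. Among the 7 products of the group with a mature sequence in the table, which also include miR-433-5p, no 2 shared a seed, and none of their seeds was found in another rat mature miRNA of the same table. Both arms of miR-434 hold the run UUUGAACCA of 9 bases, which starts at base 15 of the 5p arm and at base 1 of the 3p arm. The table of counts names the products of Mir434 by a star and not by arm, so their reads are given here under the names of that table. The mature sequences of miR-127-5p and miR-136-5p are named only.

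The libraries held between 982543 and 7414467 miRNA reads, with the MV libraries the shallower. Levels are given as the percent of a library's miRNA reads, and 95% intervals (Wilson method) cover counting error only, since each condition had 1 library. How PCR copies of a molecule were treated is not given in the sources used here. If they were counted as separate reads, all intervals for counting error are too narrow. A percent is a part of a whole, so that more of a miRNA per cell or vesicle and less of all others cannot be told apart. The cartilage miRNAs miR-140-3p, miR-140-5p, miR-455-3p and miR-455-5p, of which miR-140 is the miRNA best known for cartilage, had reads in all libraries and made up 0.526% of miRNA reads in RC-cells, 0.636% in GC-cells, 1.00% in RC-MVs and 0.841% in GC-MVs. The higher sum in MVs was carried mostly by miR-140-3p. Its log2 ratios of MVs to cells were 1.31 and 0.65 in the resting and growth zone, and those of miR-455-3p were 0.78 and 0.53. In contrast, miR-140-5p had -3.07 and -1.91 and miR-455-5p had -1.41 and -1.36. All 9 products of the miR-127 group had reads in all 4 libraries. Each of the 5 hairpins has 1 locus in the table, and reads from Rtl1 itself could be told apart only if strand was used in the counting, which is not given in the sources used here.

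Together the products of the miR-127 group held a share of 8.06% in RC-MVs (with an interval of 8.01% to 8.11%), 2.67% in GC-MVs (2.64% to 2.70%), 2.28% in RC-cells (2.27% to 2.29%) and 1.44% in GC-cells (1.43% to 1.44%). The share was thus highest in RC-MVs, and the intervals of the 4 libraries did not overlap. Most of these reads were miR-127-3p, which held 75.9% of the reads of the group in RC-cells, 78.2% in GC-cells, 84.9% in RC-MVs and 85.9% in GC-MVs.

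miR-127-3p had 112685 reads in RC-cells, 83281 in GC-cells, 75867 in RC-MVs and 22543 in GC-MVs. As a percent of miRNA reads this was 1.73% in RC-cells, 1.12% in GC-cells, 6.84% in RC-MVs and 2.29% in GC-MVs. It ranked as number 9 among all miRNAs in both cell libraries and as number 4 in both MV libraries. Its partner from the same hairpin, miR-127-5p, had 5386 reads (0.0826%) in RC-cells, 3186 (0.0430%) in GC-cells, 6458 (0.582%) in RC-MVs and 1085 (0.110%) in GC-MVs. Although the RC-MV library was far shallower than that of RC-cells, it held more reads of miR-127-5p, and the rank of this arm went from 76 in RC-cells to 23 in RC-MVs.

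The products of Mir434 were nearly equal in the cells. miR-434 had 6473 reads (0.0993%) and its star strand 6425 reads (0.0986%) in RC-cells. The same products had 4087 reads (0.0551%) and 3829 reads (0.0516%) in GC-cells. In RC-MVs they had 2723 reads (0.246%) and 2423 reads (0.219%). In GC-MVs, miR-434 had 1053 reads (0.107%) and the star strand 524 reads (0.0533%), so that GC-MVs were the library in which they lay furthest apart.

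The products of Mir136 showed another order of libraries. miR-136-3p had 9942 reads (0.153%) in RC-cells, 7085 (0.0956%) in GC-cells, 350 (0.0316%) in RC-MVs and 363 (0.0369%) in GC-MVs. It was the second most abundant product of the group in both cell libraries, after miR-127-3p, but lay below all products other than miR-433-5p in RC-MVs, where its interval overlapped that of miR-431. miR-136-5p had 2076 reads (0.0319%) in RC-cells, 1160 (0.0156%) in GC-cells, 470 (0.0424%) in RC-MVs and 118 (0.0120%) in GC-MVs.

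For Mir431 and Mir433, which come first along the strand, the leading products differed little between cells and MVs. miR-433-3p made up 0.0557% of miRNA reads in RC-cells, 0.0367% in GC-cells, 0.0600% in RC-MVs and 0.0393% in GC-MVs, with at least 386 reads in each. miR-431 made up 0.0283% in RC-cells, 0.0144% in GC-cells, 0.0369% in RC-MVs and 0.0171% in GC-MVs, with at least 168 reads in each. miR-433-5p was near the limit of detection with 41 reads in RC-cells, 27 in GC-cells, 2 in RC-MVs and 3 in GC-MVs.

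**Figure D1:**
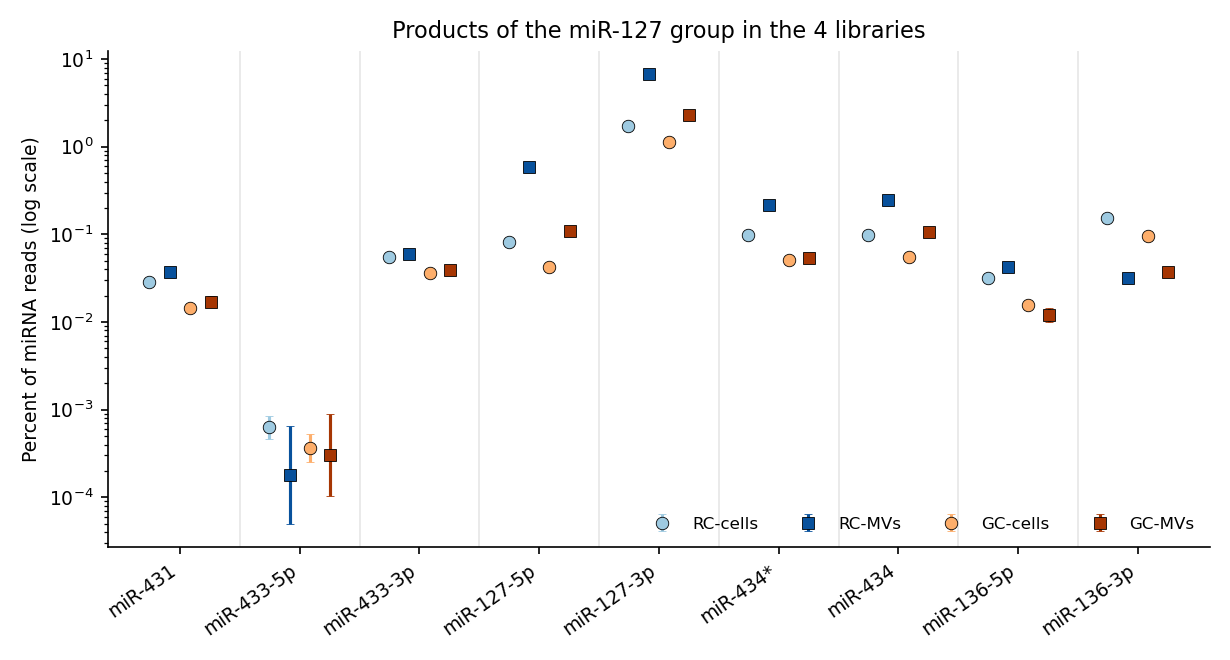
Percent of miRNA reads (log axis) for the 9 products of the miR-127 group in order along the chromosome, with 1 point per library (circles for cells, squares for MVs) and bars for the 95% Wilson interval. miR-127-3p lies above all other products in each library, and miR-136-3p is the product with at least 10 reads in all libraries whose MV points lie below the cell points in both zones by more than 2-fold.

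To ask which products were enriched in MVs, the percent in MVs was divided by that in the cells of the same zone with an exact Clopper-Pearson interval for the counting error of the ratio. In the resting zone the arms of miR-127 and the products of Mir434 were higher in RC-MVs, and miR-136-3p was lower. The ratio was 7.05 for miR-127-5p (95% interval from 6.80 to 7.31), 3.96 for miR-127-3p (3.92 to 3.99), 2.47 for miR-434 (2.36 to 2.59) and 2.22 for its star strand (2.11 to 2.32). miR-136-3p was 4.83-fold lower in RC-MVs (4.34 to 5.39). Of the remaining products, miR-136-5p had a ratio of 1.33 (1.20 to 1.47), miR-431 of 1.31 (1.17 to 1.45) and miR-433-3p of 1.08 (0.989 to 1.17), the last with an interval that included 1 and a ratio below 1 when the 3 miRNAs miR-143-3p, miR-21-5p and miR-22-3p were taken out of the totals. For miR-433-5p the ratio of 0.287 rested on 2 reads in RC-MVs and its interval ran from 0.0336 to 1.10.

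Thus 4 of the 9 products passed 2-fold in favour of RC-MVs, against 33.6% of all 414 miRNAs with reads in both libraries, and 2 of 9 were at least 2-fold lower, against 30.4%. With totals that left out the 3 abundant miRNAs, 3 products passed, against 30.9% of all miRNAs, as the star strand of miR-434 went to 1.92. The numbers of products on each side were near those shares. The ratio of miR-127-5p was exceeded by 41 of the 414 miRNAs and that of miR-127-3p by 72. The median ratio was 1.33 over the group and 1.06 over all miRNAs.

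In the growth zone the arms of miR-127 and the unstarred product of Mir434 led, with smaller ratios. The ratio of GC-MVs to GC-cells was 2.57 for miR-127-5p (2.40 to 2.75), 2.04 for miR-127-3p (2.01 to 2.07) and 1.94 for miR-434 (1.82 to 2.08). The star strand of miR-434 had a ratio of 1.03 (0.941 to 1.13), miR-431 of 1.19 (1.00 to 1.40) and miR-433-3p of 1.07 (0.961 to 1.19). Under edgeR's TMM normalization and DESeq2's size factors, the ratios of miR-433-3p and of the star strand of miR-434 in this comparison fell below 1. miR-136-5p was 1.30-fold lower in GC-MVs (1.08 to 1.59) and miR-136-3p was 2.59-fold lower (2.33 to 2.88). For miR-433-5p, with 3 reads in GC-MVs, the ratio was 0.838 with an interval from 0.163 to 2.72. There were 2 of 9 products at least 2-fold higher in GC-MVs, against 32.1% of 417 miRNAs, and 1 of 9 at least 2-fold lower, against 25.2%. With TMM normalization 1 product was at least 2-fold higher, against 27.1% of all miRNAs, with size factors 1, against 28.3%, and with the totals that left out 3 abundant miRNAs 3, against 35.3%.

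Markers of other cells and of serum also differed between cells and MVs. Of 8 blood cell miRNAs listed, 7 were in the table and made up 0.00126% of miRNA reads in RC-cells, 0.00123% in GC-cells, 0.0887% in RC-MVs and 0.190% in GC-MVs, with miR-223-3p at 0 reads in GC-cells. The 3 liver and serum miRNAs made up 0.0284% in RC-cells, 0.0393% in GC-cells, 0.418% in RC-MVs and 1.18% in GC-MVs. The higher sum in MVs came from miR-122-5p, with 32 reads in RC-cells, 34 in GC-cells, 4447 in RC-MVs and 11225 in GC-MVs. The other members did not share it, since the log2 ratio of MVs to cells was -0.55 in the resting and 0.04 in the growth zone for miR-192-5p, and -2.19 and -0.93 for miR-194-5p. The 4 skeletal muscle miRNAs, with between 19 and 72 reads per library, made up 0.000368% in RC-cells, 0.000715% in GC-cells, 0.00171% in RC-MVs and 0.00733% in GC-MVs. The sums of these 3 lists were higher in MVs than in cells of both zones. They were also higher in GC-MVs than in RC-MVs, whereas that of the miR-127 group was higher in RC-MVs. The paper's own assays differed for miR-122-5p and miR-150-5p of these lists. Its PCR array gave both as higher in GC-MVs, and its RT-qPCR of single miRNAs gave both as higher in RC-MVs. The part of these lists in the ratios above was not tested.

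**Figure D2:**
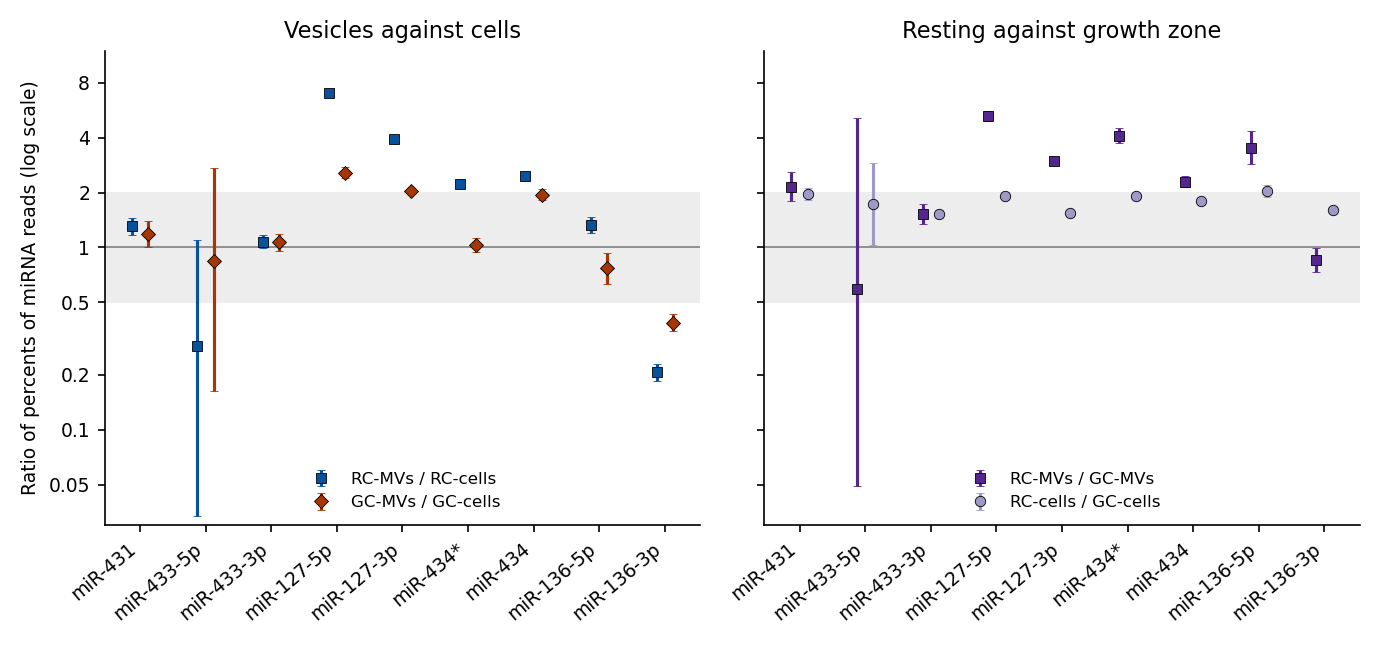
Ratio of percents of miRNA reads (log axis) for the 9 products, MVs against cells of the same zone on the left and resting against growth zone on the right. Points are ratios of single libraries, bars are 95% Clopper-Pearson intervals and the grey band spans ratios within 2-fold. miR-127-5p is the highest point of the resting zone MV to cell ratios, at 7.05, and miR-136-3p lies below the band in both zones.

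Arms of the same hairpin are made in equal number, and the ratio of their reads does not depend on how libraries are scaled. miR-127-3p made up 95.4% of the reads of its hairpin in RC-cells (95% interval from 95.3% to 95.6%), 96.3% in GC-cells (96.2% to 96.4%), 92.2% in RC-MVs (92.0% to 92.3%) and 95.4% in GC-MVs (95.1% to 95.7%). There were 20.9 reads of the 3p arm for each read of the 5p arm in RC-cells, 26.1 in GC-cells, 11.7 in RC-MVs and 20.8 in GC-MVs. The 5p arm thus gained on the 3p arm by 1.78-fold from RC-cells to RC-MVs (1.72 to 1.85) and by 1.26-fold from GC-cells to GC-MVs (1.17 to 1.35). The leading arm was the 3p arm in all 4 libraries.

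For miR-136 the leading arm itself differed. The 3p arm made up 82.7% of the reads of the hairpin in RC-cells (82.0% to 83.4%), 85.9% in GC-cells (85.2% to 86.7%) and 75.5% in GC-MVs (71.4% to 79.1%), but 42.7% in RC-MVs (39.3% to 46.1%). The ratio of 3p to 5p reads was 4.79 in RC-cells and 0.745 in RC-MVs, a 6.43-fold shift towards the 5p arm (5.56 to 7.44). In the growth zone it was 6.11 in the cells and 3.08 in the MVs, a 1.99-fold shift (1.60 to 2.47). Of all precursors with at least 10 reads of both arms in both libraries, 31 of 93 shifted more than miR-136 between RC-MVs and RC-cells, and 73 of 93 more than miR-127. In that comparison the leading arm differed for 17 of the 93 precursors, or 18.3%, miR-136 among them. Between GC-MVs and GC-cells it differed for 9 of 80 precursors, and between RC-cells and GC-cells for 3 of 145. None of these were in the group. Between RC-MVs and GC-MVs it differed for 10 of 76, miR-136 among them. In that comparison the arm ratio of miR-136 was shifted 4.13-fold towards the 5p arm in RC-MVs (3.22 to 5.30), and 6 of 76 precursors shifted more.

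The arms of miR-434 were almost balanced, as the unstarred product made up 50.2% of the reads of the hairpin in RC-cells (49.3% to 51.0%), 52.9% in RC-MVs (51.5% to 54.3%) and 51.6% in GC-cells (50.5% to 52.7%). In GC-MVs it made up 66.8% (64.4% to 69.1%), a 1.88-fold shift of the arm ratio from GC-cells (1.68 to 2.11). Between GC-MVs and GC-cells, 48 of 80 precursors shifted more than miR-434, 46 more than miR-136 and 68 more than miR-127. miR-433-3p made up between 98.9% and 99.7% of the reads of its hairpin in the 4 libraries, and the 2 and 3 reads of miR-433-5p in the MVs allowed no comparison between them. miR-431 is the only product of Mir431 in the table.

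**Figure D3:**
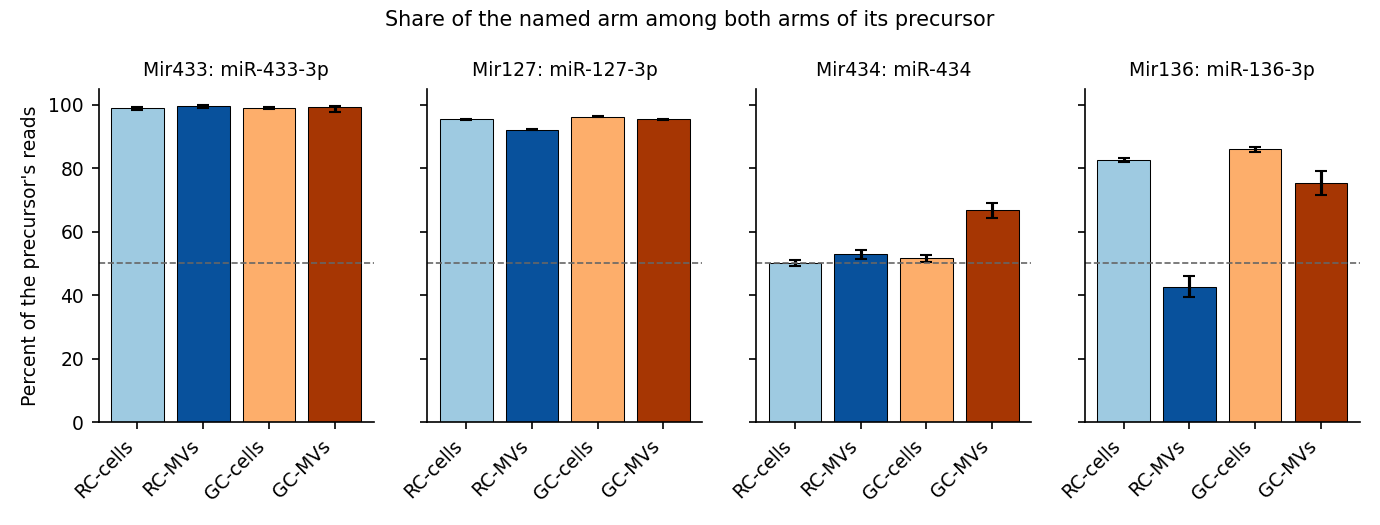
Percent of the reads of each hairpin that came from the named arm (the unstarred product for Mir434) in the 4 libraries, with 95% Wilson intervals and a dashed line at equal shares. The bar of miR-136-3p falls below the line in RC-MVs, at 42.7%, and the bar of miR-434 stands at 66.8% in GC-MVs.

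To ask whether the group depended on the maturation of the cells, the resting zone was divided by the growth zone. Between the MVs, the group as a whole was 3.02-fold higher in RC-MVs (2.98 to 3.06). miR-127-5p was 5.27-fold higher (4.94 to 5.63), the star strand of miR-434 was 4.10-fold higher (3.73 to 4.51), miR-136-5p was 3.53-fold higher (2.88 to 4.36), miR-127-3p was 2.98-fold higher (2.94 to 3.03), miR-434 was 2.29-fold higher (2.13 to 2.46) and miR-431 was 2.16-fold higher (1.80 to 2.60). miR-136-3p had a ratio of 0.854 (0.736 to 0.992). miR-433-3p had a ratio of 1.53 (1.34 to 1.74), which fell below 1 with totals that left out the same 3 miRNAs. The 2 and 3 reads of miR-433-5p gave a ratio of 0.591 with an interval from 0.0493 to 5.16. There were 6 of 9 products at least 2-fold higher in RC-MVs, against 24.7% of 397 miRNAs with reads in both libraries, and 0 of 9 at least 2-fold lower, against 14.6%. Of the other miRNAs in the Dlk1-Dio3 domain, 36 of 78 were likewise at least 2-fold higher and 4 of 78 lower. The count of products depended on the scaling, since it was 4 with TMM normalization or size factors and 3 with totals that left out miR-143-3p, miR-21-5p and miR-22-3p, where the fold of the group was 1.95. These totals lowered all log2 ratios between the MVs by 0.63, size factors by 0.25 and TMM normalization by 0.20. Among all miRNAs, 98 were higher and 58 lower as deposited, 74 and 71 with TMM normalization, 71 and 82 with size factors, and 40 and 123 with the reduced totals.

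Between the cells, all 9 products had a higher share in RC-cells, with ratios within a narrow range from 1.52 for miR-433-3p (1.45 to 1.60) to 2.04 for miR-136-5p (1.89 to 2.19). miR-127-3p had a ratio of 1.54 (1.53 to 1.55) and miR-127-5p of 1.92 (1.84 to 2.01). The median was 1.80 over the group and 1.18 over all 474 miRNAs tested. With 1 product past 2-fold, against 13.7% of all miRNAs, and 0 products past 2-fold in favour of GC-cells, against 5.7%, few of these differences reached 2-fold. All 9 ratios stayed above 1 under the other scalings, which lowered log2 ratios between the cells by 0.32 to 0.36 and left 0 products past 2-fold. Among all miRNAs, 65 were higher in RC-cells and 27 lower as deposited, whereas the numbers were 34 and 51 with TMM normalization, 32 and 53 with size factors, and 35 and 51 with the reduced totals.

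The vesicle-to-cell ratio of the group was 3.54 in the resting zone (3.51 to 3.57) and 1.86 in the growth zone (1.84 to 1.89). These sums were mostly miR-127-3p, and without it the ratios were 2.22 (2.17 to 2.26) and 1.21 (1.16 to 1.25). Dividing the ratio of the resting zone by that of the growth zone gave 2.74 for miR-127-5p (2.54 to 2.96), 2.15 for the star strand of miR-434 (1.94 to 2.38), 1.94 for miR-127-3p (1.90 to 1.97), 1.73 for miR-136-5p (1.40 to 2.15) and 1.27 for miR-434 (1.17 to 1.38), with normal-approximation intervals for counting error. miR-136-3p went the other way with a value of 0.535 (0.461 to 0.622), as it was depleted more strongly in RC-MVs. For miR-431 the value was 1.10 (0.904 to 1.33) and for miR-433-3p 1.00 (0.877 to 1.15), both with intervals that included 1. With the totals that left out 3 abundant miRNAs these values were 0.884 (0.728 to 1.07) and 0.808 (0.706 to 0.925), and that of miR-434 was 1.02 (0.944 to 1.11). Under that scaling the value was 2.21 for miR-127-5p, 1.73 for the star strand of miR-434, 1.56 for miR-127-3p, 1.40 for miR-136-5p and 0.431 for miR-136-3p, each on the same side of 1 as before. The median over the 262 miRNAs that had 10 or more reads in every library was 0.998, and 6 of them exceeded miR-127-5p.

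**Figure D4:**
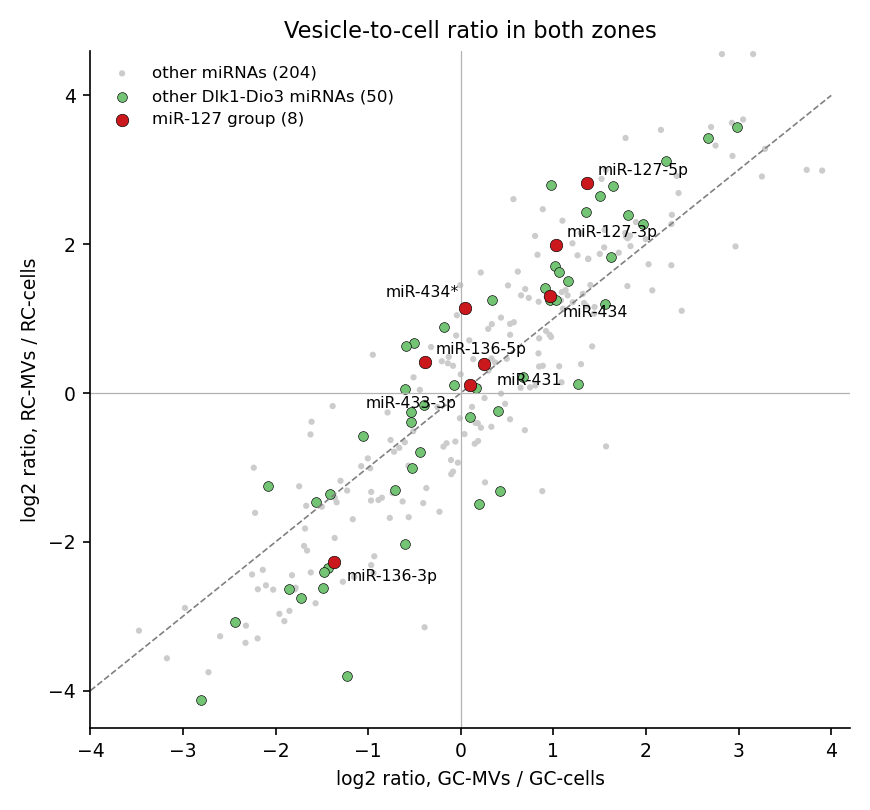
log2 of the vesicle-to-cell ratio, resting zone against growth zone, for the 262 miRNAs that had 10 or more reads in every library, with the miR-127 group in red, other Dlk1-Dio3 miRNAs in green and the line of equal ratios dashed. miR-127-5p and miR-127-3p lie above the line in the upper right, miR-136-3p lies below it in the lower left, and 4 miRNAs outside the group fall beyond the axes.

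The same comparisons were made for the other miRNAs between Dlk1 and Dio3, which share the maternal transcription unit. There were 94 such products in the table, and together they made up 4.75% of miRNA reads in RC-cells, 2.77% in GC-cells, 11.6% in RC-MVs and 4.89% in GC-MVs. The miR-127 group held 32.4% of all reads of the domain in RC-cells, 34.2% in GC-cells, 40.9% in RC-MVs and 35.3% in GC-MVs. The sum of the other products was 2.45-fold higher in the vesicles of the resting zone (2.44 to 2.47), but single products went both ways, as 24 of 80 with reads in both libraries were at least 2-fold higher and 27 of 80 at least 2-fold lower, near the 33.6% and 30.4% of all miRNAs. In the growth zone the sum was 1.77-fold higher in the vesicles (1.75 to 1.79), with 22 of 80 products at least 2-fold higher and 26 of 80 lower, against 32.1% and 25.2% of all miRNAs. Among the 22 with 100 or more reads in every library, miR-134-5p was 11.9-fold higher in RC-MVs (11.7 to 12.1), followed by miR-770-3p with 10.8-fold (9.69 to 12.01) and miR-370-3p with 6.89-fold (6.72 to 7.06). At the other end, miR-411-5p was 17.5-fold lower (15.4 to 20.1), miR-494-3p was 6.18-fold lower (5.28 to 7.27) and miR-495 was 2.76-fold lower (2.55 to 2.997). In GC-MVs miR-134-5p was 7.92-fold higher, miR-770-3p 6.35-fold and miR-370-3p 3.13-fold, whereas miR-411-5p was 6.99-fold lower, miR-494-3p 2.80-fold and miR-495 2.95-fold. The spread of the miR-127 group, from miR-136-3p to miR-127-5p, thus lay inside that of its domain. Between the cells, the median ratio of RC-cells to GC-cells was 1.80 for the group and 1.79 for 83 other products of the domain. Of these 83, 26 were at least 2-fold higher in RC-cells and 1 at least 2-fold lower, against 13.7% and 5.7% of all miRNAs. In the group, 1 of 9 products was at least 2-fold higher and 0 of 9 at least 2-fold lower.

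The pattern over the 4 libraries was compared with that of 123 other miRNAs with at least 100 reads in each library, by the root mean square difference of log2 percents after each miRNA was centred on its own mean. The miRNAs nearest to miR-127-3p were miR-341 at 0.11, miR-185-5p at 0.13, miR-30c-2-3p and miR-541-5p at 0.14, and miR-152-5p at 0.18. Of these, miR-341 and miR-541-5p lie in the Dlk1-Dio3 domain, and miR-341 made up 0.376% of miRNA reads in RC-cells, 0.209% in GC-cells, 1.22% in RC-MVs and 0.421% in GC-MVs. Nearest to miR-127-5p were miR-540-3p at 0.19, miR-485-5p at 0.21 and miR-370-3p at 0.27, all of the domain, and then miR-148a-5p at 0.38 and miR-152-5p at 0.39.

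The base composition of the mature sequence moved with the vesicle-to-cell ratio over all miRNAs. Across 265 miRNAs with 10 or more reads in each library compared and a sequence in the RefSeq table, the share of G and C in the sequence and the log2 ratio of RC-MVs to RC-cells had a Spearman rho of 0.56, and across 251 miRNAs of the growth zone the rho was 0.51. These are descriptions across miRNAs of the same libraries, which are not independent. The median ratio in the resting zone was 1.92 for the 132 miRNAs with at least 50% G and C and 0.544 for the 133 with less. In the group, miR-127-3p had 59.1% G and C, miR-431 57.1%, miR-433-3p 54.5%, miR-434-5p 47.8%, miR-434-3p and miR-433-5p 45.5% each and miR-136-3p 40.9%. No value was computed for miR-127-5p and miR-136-5p. Among these 7 products, that with the most G and C was enriched in RC-MVs and that with the least was depleted, whereas miR-431 and miR-433-3p had ratios of 1.31 and 1.08 at a composition close to that of miR-127-3p. Both arms of miR-434 had under 50% G and C, and both products of Mir434 were enriched in RC-MVs, with ratios of 2.47 and 2.22. The part of base composition in the ratios of the group was not tested.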

How the data were processed

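Small RNA of cells and MVs from both zones was sequenced on an Illumina instrument. The authors aligned reads with Bowtie2 to Rnor_6.0 and tabulated miRNAs with miARma-Seq, and the deposited values are raw read counts for 774 miRNA loci. Tool versions, trimming, strand and the treatment of reads with several matches are not given in the sources used here. Counts of equal names were summed, which gave 740 names, of which 28 had more than 1 locus. Percents of all miRNA reads were compared as ratios, called at 2-fold where each library compared had at least 1 read. With 1 library per group no test was made. The named products were all members, the 3 highest and 3 lowest domain miRNAs by RC-MV to RC-cell ratio, the 5 nearest patterns and the marker miRNAs. Members and lists were chosen with earlier results of these data known. Domain membership was read from RefSeq (GRCr8), with 59 miRNA genes between Dlk1 and Dio3. Alternatives were TMM normalization, size factors, totals without 3 abundant miRNAs, a pseudocount of 0.5, thinning (100 draws), at least 10 reads, whole intervals beyond 2-fold, a 4-fold threshold and each locus as deposited. The code for ratios and intervals was run on counts simulated with known folds and Poisson counting error only. These counts hold no variation between replicate libraries, so they cannot show how the intervals cover it. The comparison of base composition was added after the data were seen. The PCR array of the study was not used here, apart from the directions that the paper gives for miR-136-5p, miR-122-5p and miR-150-5p. Python 3.11.15 (numpy 2.4.6, pandas 2.3.3, scipy 1.17.1, matplotlib 3.10.9) and R 4.3.3 (edgeR 4.0.16, DESeq2 1.42.0) were used.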

Additional observations from a re-analysis of the deposited data

Results flagged for a closer look

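miR-136-5p was the product of the group with at least 10 reads in all libraries whose ratio of MVs to cells lay on opposite sides of 1 in the zones when divided by all miRNA reads. Resting zone libraries gave 1.33 and growth zone libraries 0.768, and the first divided by the second was 1.73 (95% interval from 1.40 to 2.15, counting error only). With 1 library per condition this difference was not tested. Under TMM normalization the star strand of miR-434 (2.08 and 0.884) and miR-433-3p (1.01 and 0.917) also lay on opposite sides of 1 in the resting and growth zone, as they did with size factors. With totals that left out 3 abundant miRNAs, miR-433-3p had 0.9298 and 1.15. For miR-136-5p in the resting zone, the PCR array of the paper went the other way from the ratio of 1.33. There the vesicles held less of this miRNA, and the paper lists that change among those past its cutoffs. The sequencing and the array thus disagreed on the side of 1 in the resting zone, and the reason was not tested.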

How the results depend on the processing

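No paired analysis was possible because a condition had a single library. The fold of the summed group kept its direction under every scaling, and stayed inside its counting interval with a pseudocount of 0.5 or thinning. In the order TMM normalization, size factors and totals that left out miR-143-3p, miR-21-5p and miR-22-3p, it was 3.32, 3.44 and 3.06 for RC-MVs against their cells, 1.59, 1.68 and 1.997 for GC-MVs against theirs, 2.62, 2.54 and 1.95 for RC-MVs against GC-MVs, and 1.26, 1.24 and 1.27 for RC-cells against GC-cells. Products near 1 crossed it: miR-433-3p fell to 0.9298 for RC-MVs against RC-cells and to 0.986 for RC-MVs against GC-MVs without the 3 abundant miRNAs, and to 0.917 with TMM normalization and 0.967 with size factors for GC-MVs against GC-cells, where the star strand of miR-434 fell to 0.884 and 0.932. Of 36 product folds, 21 left their counting interval on the same side of 1 with TMM normalization, 18 with size factors and 25 without the 3 abundant miRNAs. Those with a pseudocount (36) or thinning (32, without miR-433-5p, which lost its reads in some draws) stayed inside their intervals, as did all 16 arm shares under both. The resting zone ratio over the growth zone ratio, rescaled after the data were seen, went below 1 for miR-431 (0.884) and miR-433-3p (0.808) without the 3 abundant miRNAs. For RC-MVs against RC-cells, 1 product was at least 4-fold higher (17.4% of all miRNAs), and 1 in place of 2 was lower with at least 10 reads (28.3%), with the whole interval beyond 2-fold (19.8%) or at 4-fold (17.1%), since miR-433-5p, with 2 reads in RC-MVs, was 3.49-fold lower with an interval that included 1. For GC-MVs against GC-cells, 1 product was higher with TMM normalization (27.1% of all miRNAs) or size factors (28.3%), 3 without the 3 abundant miRNAs (35.3%), and 0 in either direction at 4-fold (14.6% higher and 9.59% lower). For RC-MVs against GC-MVs, 3 were higher without the 3 abundant miRNAs (10.1% of all miRNAs) and 2 at 4-fold (4.79%), while 1, miR-433-5p with 2 and 3 reads, was lower with size factors (20.7% of all miRNAs) or without the 3 miRNAs (31.0%) and 0.22 on average after thinning (15.8%). For RC-cells against GC-cells, 0 were higher with TMM normalization (7.17% of all miRNAs), size factors (6.75%), without the 3 miRNAs (7.38%), with the whole interval (3.80%) or at 4-fold (2.74%), and 1.95 on average after thinning (17.5%), when 0.04 were lower (7.79%). Depth limits miR-433-5p most, and the lack of replicates limits every comparison.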
